A study of Mus musculus with 8 samples.

Results

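The aminoacyl-tRNA synthetase genes of mouse haematopoietic stem cells (HSCs), the cells from which all blood lineages arise, were described in 8 bulk RNA-seq libraries, with the genes for the scaffold proteins that hold several of the enzymes together. The rule uses gene symbols and no measured value, although it was written with earlier results of these data known, as were the marker and pathway lists below. It takes protein-coding genes whose name is an amino acid letter followed by ars, with or without a final 2, together with Eprs, Farsa, Farsb, Fars2, Aimp1, Aimp2 and Eef1e1. This gave 39 of the 55487 gene rows, 20 for cytosolic enzymes, 16 for mitochondrial enzymes (names ending in 2) and 3 for scaffold proteins. Read to the letter, the name pattern leaves out Pars2, the mitochondrial prolyl enzyme, and Tarsl2, a second cytosolic threonyl enzyme. All cells were sorted HSCs. Of the libraries, 4 carry the genotype label NTC, a non-target control, and 4 the label miR652-KD, a knockdown of the microRNA miR-652. Strain, age, sex, the markers of the sort, the agent used for the knockdown and whether replicates came from separate animals are stated by no label. P-values therefore cover only variation among the 8 libraries, and this variation may be technical. The comparison asks which transcripts differ when miR-652 is knocked down.

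Aminoacyl-tRNA synthetases attach each amino acid to its own transfer RNA, at the cost of ATP, and so supply the ribosome and set the accuracy with which the genetic code is read. Mammalian cells keep separate enzymes for the cytosol and for mitochondria, all encoded in the nucleus, and the genes Gars and Kars each serve both compartments. Several cytosolic enzymes sit in a multisynthetase complex on the scaffold proteins encoded by Aimp1, Aimp2 and Eef1e1. Many cytosolic synthetase genes are known targets of ATF4, the transcription factor induced when uncharged transfer RNA activates the kinase GCN2. HSCs are known for low rates of protein synthesis.

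Matches to the miR-652 seed were searched first, since a microRNA acts through short matches to its seed in 3′ UTRs. Both mature arms of mouse miR-652 are shown with the seed (bases 2 to 8) in capitals, from RefSeq on GRCm38.p6. They lie on the plus strand at chrX:142739020-142739043 for the 5p arm and chrX:142739060-142739080 for the 3p arm.
mmu-miR-652-5p: cAACCCUAggagggggugccauuc
mmu-miR-652-3p: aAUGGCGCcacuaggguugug
The complement of the 5p seed, TAGGGTT, was found in the 3′ UTR of the principal transcript of 1399 of 20738 protein-coding genes (6.75%) and of 2 of the 39 members, Mars2 and Eef1e1. The complement of the 3p seed, GCGCCAT, was found in 302 genes (1.46%) and in 0 members. Each member match covered the seed without a following A, a class of site called 7mer-m8. The Mars2 match lies at base 312 of a 3′ UTR of 9470 bases, in chr1:55239302-55239328 on the plus strand, and the Eef1e1 match at base 1656 of 1963, in chr13:38644498-38644524 on the minus strand (GENCODE M21 on mm10). Both are shown as transcribed, with the seed match in capitals.
Mars2: caactaaatcTAGGGTTggaagtccct
Eef1e1: ttgccatggtTAGGGTTctcgatccgg
Letters alone do not show a working site. Mars2 and Eef1e1 are given with the other members below.

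Promoter sequence played no part in the choice of members. RefSeq windows from 250 bases before to 50 bases after the start site were at hand for 30 of the 39 members, 13 cytosolic, 14 mitochondrial and 3 scaffold genes. The C/EBP-ATF response element, which ATF4 binds, was searched as TGATGNAA on both strands. It was found in 5 of the 13 cytosolic promoters, 0 of the 14 mitochondrial ones and 0 of the 3 scaffold ones, against 4.5% of the promoters of 27025 genes. The 5 genes are Aars, which holds it at 2 places, and Gars, Iars, Tars and Yars, for the alanyl, glycyl, isoleucyl, threonyl and tyrosyl enzymes. All 6 matches are shown, 5′ to 3′ in the direction of the gene, with the match in capitals. In 5 of the 6 the word runs on the opposite strand.
Yars at chr4:129189890-129189929, plus strand: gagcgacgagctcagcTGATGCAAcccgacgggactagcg
Gars at chr6:55037955-55037994, plus strand: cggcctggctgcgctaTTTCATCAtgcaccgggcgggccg
Aars at chr8:111033714-111033753, plus strand: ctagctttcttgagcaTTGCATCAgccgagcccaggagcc
Aars at chr8:111033835-111033874, plus strand: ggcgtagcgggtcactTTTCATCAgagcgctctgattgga
Iars at chr13:49682121-49682160, plus strand: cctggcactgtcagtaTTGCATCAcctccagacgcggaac
Tars at chr15:11399650-11399689, minus strand: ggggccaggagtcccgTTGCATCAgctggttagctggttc
The first base of the match lies at +4 in Yars, -30 in Gars, -112 and +10 in Aars, +8 in Iars and -15 in Tars, counted from the start site. Of the 13 other words searched on both strands, CACGTG, the E-box that MYC and USF bind, was found in 4 cytosolic promoters and 1 mitochondrial one (8.1% of all genes). CCGGAAG, the core bound by ETS factors, was found in 5 cytosolic, 4 mitochondrial and 2 scaffold promoters (9.9%). GCCATNTTG, the YY1 word, was found in 0 cytosolic and 3 mitochondrial promoters (2.9%), those of Lars2, Wars2 and Yars2. GCGCATGCG, the NRF1 word, was found in 0 cytosolic and 2 mitochondrial promoters (2.0%), those of Vars2 and Wars2. TATAAA was found in 1 cytosolic and 2 mitochondrial promoters (15.7%) and TTTCNNTTT in 1 cytosolic one (12.1%). TGACGTCA (2.0%) and the rarest word searched (0.5%) were found in 0 member promoters. GGGCGG was found in 8 cytosolic, 11 mitochondrial and 2 scaffold promoters (38.2%). For CCAAT these numbers were 7, 6 and 3 (41.1%) and for GGAAGT 4, 6 and 2 (26.5%). For CCGGAAGT they were 2, 1 and 1 (4.3%) and for TGATGCAA 4, 0 and 0 (1.0%). A match describes the letters of the window and is no evidence that a factor binds there.

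Counts in genes totalled 14017632 to 16763709 in NTC and 14677644 to 19894821 in miR652-KD. The annotated miR-652 hairpin had 0 to 2 counts in NTC and 0 to 5 in miR652-KD. The assay does not capture RNA as short as a mature microRNA, so these libraries do not check the knockdown. All 9 HSC markers looked for were detected, and their summed level of 1952.5 to 2408.7 CPM (counts per 1000000 counts in genes) overlapped between groups. Of these 9 markers, 2 were higher and 2 lower in miR652-KD at an unadjusted p below 0.05 by edgeR, and 0 after adjustment. Of all genes tested, 2.9% were higher and 3.09% lower at that unadjusted p. Ly6a, which encodes Sca-1, averaged 277.8 ± 26.0 CPM over the controls and 424.6 ± 80.8 CPM over the knockdown libraries (SD, n = 4). Kit, the stem cell factor receptor, averaged 517.7 ± 99.6 and 408.4 ± 23.3 CPM. Groups did not overlap in either gene, as in 2.35% of all genes tested for higher values and 2.15% for lower ones. The other markers at an unadjusted p below 0.05 by edgeR were Hoxb5, with a log2 fold change of 1.04, and Mecom, with -0.33. Transcripts of other blood cells varied between libraries, with sums that overlapped between groups. The summed level of 10 granulocyte and monocyte markers was 729.2, 3167.6, 9658.8 and 14980.4 CPM in NTC replicates 1 to 4 and 702.3 to 4989.1 CPM in miR652-KD. For 11 erythroid markers it ran from 4191.1 to 7904.4 CPM in the controls. In miR652-KD replicates 1 to 4 it was 1798.0, 2268.6, 2079.4 and 4551.6 CPM, so that only replicate 4 reached the range of the controls. The summed level of 22 G2 and M phase genes ran from 815.6 to 1260.9 CPM in the controls and from 1037.2 to 2259.0 CPM in the knockdown libraries. Of the 22, 21 had a log2 fold change above 0. At an unadjusted p below 0.05 by edgeR, 11 were higher, beside 2.9% of all genes tested, and 0 after adjustment. In 6 every knockdown library lay above every control, beside 2.35% of all genes tested. The sum of 15 S phase genes averaged 1824.8 ± 439.0 CPM over the controls and 2210.6 ± 321.3 CPM over the knockdown libraries (SD, n = 4). Of these 15, 13 had a log2 fold change above 0. At an unadjusted p below 0.05 by edgeR, 4 were higher and 0 lower, beside 2.9% and 3.09% of all genes tested, and 0 after adjustment. Groups were apart in 1, which was higher in miR652-KD. B cell markers were low throughout, with a summed level of 44.0 to 92.7 CPM for 5 genes. By edgeR 0 of the 9 granulocyte and monocyte markers tested and 0 of the 11 erythroid markers passed the threshold described below, although 9 and 9 had a log2 fold change below 0. At an unadjusted p below 0.05 by edgeR, 5 and 2 of them were lower, beside 3.09% of all genes tested, and 0 were higher. Every knockdown library lay below every control in 0 and 2 of them, beside 2.15% of all genes tested. In bulk RNA, fewer cells of a type and less RNA per cell cannot be told apart. Whether these shifts contribute to the values below was not tested beyond leaving out NTC replicates 3 and 4.

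No synthetase or scaffold gene passed the threshold. With edgeR's quasi-likelihood test and Benjamini-Hochberg adjustment over 14360 genes, 0 of the 39 members had an adjusted p below 0.05, where 6 genes in all (0.0418%) did. At an unadjusted p below 0.05, Kars and Wars were higher and Gars and Vars2 lower in miR652-KD, 2 members in each direction, beside 2.9% of all genes higher and 3.09% lower. DESeq2 called 131 genes (0.81% of 16177 given an adjusted p) and 0 members. At an unadjusted p below 0.05 by DESeq2 there were 5 of the 39 members, beside 1522 of 23457 genes. These 23457 are all genes with any count, also those of low count that the edgeR filter removed. The DESeq2 shares of members and of all genes are therefore not like for like. Limma-voom with quality weights called 0 members. It had 3 of the 39 members at an unadjusted p below 0.05, beside 1036 of 14360 genes. The CPM of both groups did not overlap for 3 members. Kars and Fars2 were higher in all 4 miR652-KD libraries than in any NTC library, as were 2.35% of all genes tested, and Vars2 was lower, as were 2.15%. Nothing more is read from counts of 2 and 1 among 39 members. All 39 members passed the filter on low counts, and the median log2 fold change was 0.05, with 25 above 0 and 14 below. Over all genes tested the median was -0.004, with 7113 above 0 and 7247 below.

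**Figure D1:**
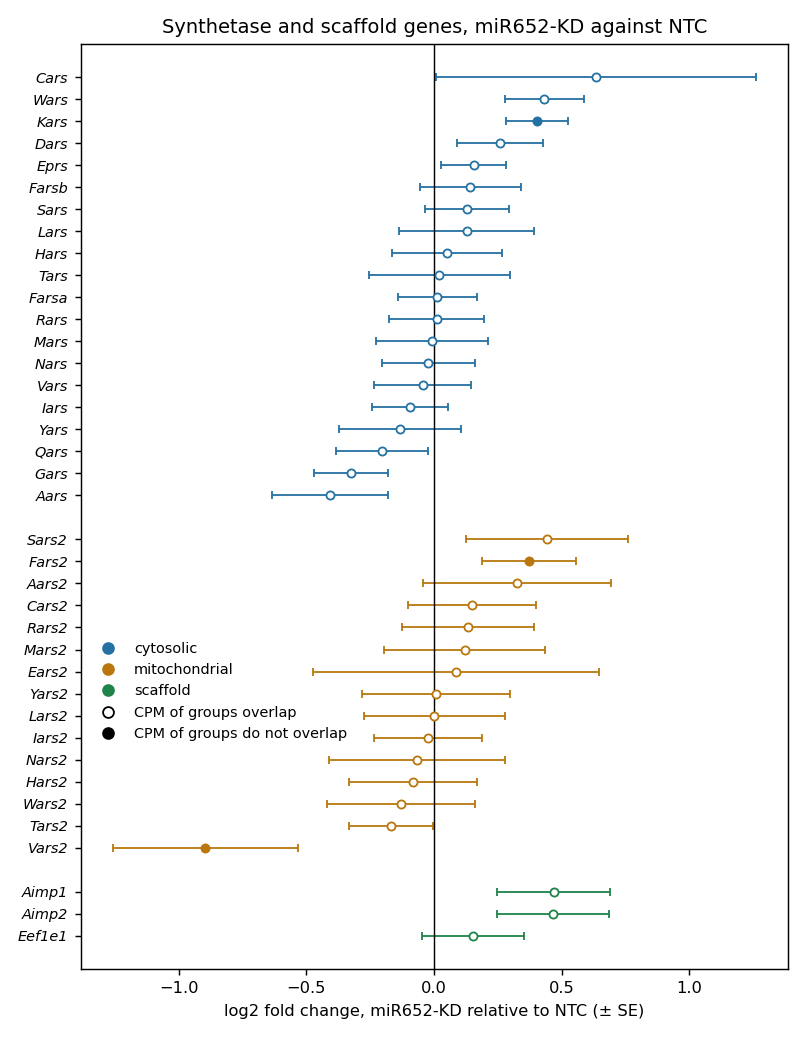
Log2 fold change of each gene reported in miR652-KD relative to NTC (horizontal axis) with its SE as a bar, ordered within the cytosolic, mitochondrial and scaffold genes. Filled points mark the 3 genes, Kars, Fars2 and Vars2, whose CPM did not overlap between the 4 libraries of each group, and no gene passed the adjusted threshold.

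The 20 cytosolic genes had a median log2 fold change of 0.02, with 12 above 0 and 8 below, and a range from -0.41 to 0.63. Kars (ENSMUSG00000031948.14, chr8:111993443-112011323) encodes lysyl-tRNA synthetase, the enzyme of cytosol and mitochondria alike and a member of the multisynthetase complex. It was at 218.5, 224.7, 213.8 and 190.8 CPM in NTC replicates 1 to 4 and at 264.2, 307.5, 232.6 and 314.5 CPM in miR652-KD. The lowest knockdown library lay above the highest control. The log2 fold change was 0.40 (SE 0.12, edgeR adjusted p = 0.764), and 0.34 without NTC replicates 3 and 4. Stretches of 143 to 231 matched bases are shared with 16 other genes, 13 of them pseudogenes, at 75.6% to 86.8% identity, and reads from there are uncertain.

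Wars (ENSMUSG00000021266.16, chr12:108860030-108894174), the tryptophanyl enzyme and a gene known to be induced by interferon gamma, was at 80.4, 95.5, 67.1 and 75.2 CPM in NTC and at 102.7, 107.4, 125.2 and 93.8 CPM in miR652-KD. The groups overlapped only through NTC replicate 2 and miR652-KD replicate 4. Its log2 fold change was 0.43 (SE 0.15, edgeR adjusted p = 0.782), and 0.29 without NTC replicates 3 and 4. Dars, the aspartyl enzyme of the complex, was at 167.9, 150.6, 180.6 and 129.4 CPM in NTC and at 205.6, 201.5, 133.4 and 208.3 CPM in miR652-KD. Of the knockdown libraries 3 stood above all controls and replicate 3 stood among them, for a log2 fold change of 0.26 (SE 0.17, edgeR adjusted p = 0.934), which was 0.40 without that library. Eprs, the fused glutamyl and prolyl enzyme of the complex, was at 205.7, 250.9, 188.3 and 196.7 CPM in NTC and at 204.3, 231.0, 271.8 and 230.2 CPM in miR652-KD, with a log2 fold change of 0.16 (SE 0.13, edgeR adjusted p = 0.989). Its groups overlapped, and leaving out 1 library moved the value between 0.09 (knockdown library 3 left out) and 0.27 (control 2 left out). With controls 3 and 4 both left out it was 0.04.

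Among the cytosolic genes with lower values in miR652-KD, Gars (ENSMUSG00000029777.10, chr6:55038007-55079500), the glycyl enzyme of both compartments, had the smallest p. It was at 134.4, 131.6, 120.7 and 99.1 CPM in NTC and at 91.6, 101.9, 83.7 and 109.8 CPM in miR652-KD. The groups overlapped through NTC replicate 4, and the log2 fold change was -0.32 (SE 0.14, edgeR adjusted p = 0.833). Without NTC replicates 3 and 4 it was -0.45. Aars, the alanyl enzyme, was at 89.4, 47.9, 70.8 and 57.8 CPM in NTC and at 42.7, 54.5, 62.6 and 39.6 CPM in miR652-KD. NTC replicate 1 was the highest and the groups overlapped, for a log2 fold change of -0.41 (SE 0.23, edgeR adjusted p = 0.904), which was -0.25 without that library. Exons of Exosc6, on the same strand, and of the microRNA gene Gm24103, on the opposite strand, together overlap 15.1% of the exonic bases of Aars. Qars, the glutaminyl enzyme of the complex, was at 131.2, 150.7, 130.2 and 86.0 CPM in NTC and at 109.0, 121.2, 90.9 and 110.0 CPM in miR652-KD. The groups overlapped, with a log2 fold change of -0.20 (SE 0.18, edgeR adjusted p = 0.989). Leaving out 1 library moved it between -0.08 (control 2 left out) and -0.34 (control 4 left out), and it was -0.38 with controls 3 and 4 both left out.

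Cars (ENSMUSG00000010755.17, chr7:143557230-143600090), the cysteinyl enzyme, had the lowest level per length and the widest spread of the cytosolic genes. It was at 42.0, 9.8, 16.9 and 3.4 CPM in NTC and at 24.2, 41.5, 29.2 and 15.6 CPM in miR652-KD. NTC replicate 4 rested on 50 counts, the lowest count of any member, and its 3.42 CPM had an exact binomial 95% interval from 2.54 to 4.5, which covers counting error only. The highest of the 8 values was 12.3 times the lowest. The log2 fold change of Cars, 0.63 (SE 0.63, edgeR adjusted p = 0.995), was 1.45 without NTC replicate 1, 0.30 without NTC replicate 4 and 0.12 without NTC replicates 3 and 4. The other 12 cytosolic genes had log2 fold changes between -0.13 (Yars, tyrosyl) and 0.14 (Farsb, the beta subunit of the phenylalanyl enzyme), none with groups apart. Iars shares 2132 matched bases at 94.7% identity with the processed pseudogene Gm4849, so its count is uncertain.

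Levels were compared between genes as CPM per kilobase of the principal transcript. In NTC the order of the cytosolic genes was led by Farsa, the alpha subunit of the phenylalanyl enzyme, at 114.5 ± 10.9 (SD, n = 4), and Kars at 105.5 ± 7.37. Farsa and Kars lay within each other's spread in NTC, and Kars reached 139.3 ± 19.2 in miR652-KD against 115.2 ± 22.4 for Farsa. Dars followed at 72.2 ± 10.2 and Vars, the valyl enzyme, at 64.6 ± 13.7, again within their spread. At the low end stood Lars (leucyl) at 15.2 ± 3.75, Aars at 11.6 ± 3.12 and Cars at 5.60 ± 5.25. The alpha and beta subunits of the phenylalanyl enzyme, which pair in equal numbers in the protein, differed on this scale, Farsb being at 45.4 ± 11.2. With the union of all annotated exons as the length, Farsa was at 46.1 and Farsb at 35.3 CPM per kilobase, and the order was led by Vars at 47.7, Kars at 47.5 and Farsa, while Cars was again the lowest cytosolic gene at 2.74. Farsa CPM were 197.9, 196.8, 238.6 and 203.2 in NTC and 216.2, 234.6, 151.0 and 239.8 in miR652-KD, with a log2 fold change of 0.01 (SE 0.16, edgeR adjusted p = 0.999). Miscounting may differ between genes, since exons of Sgpp2 overlap 9.5% of Farsb.

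**Figure D2:**
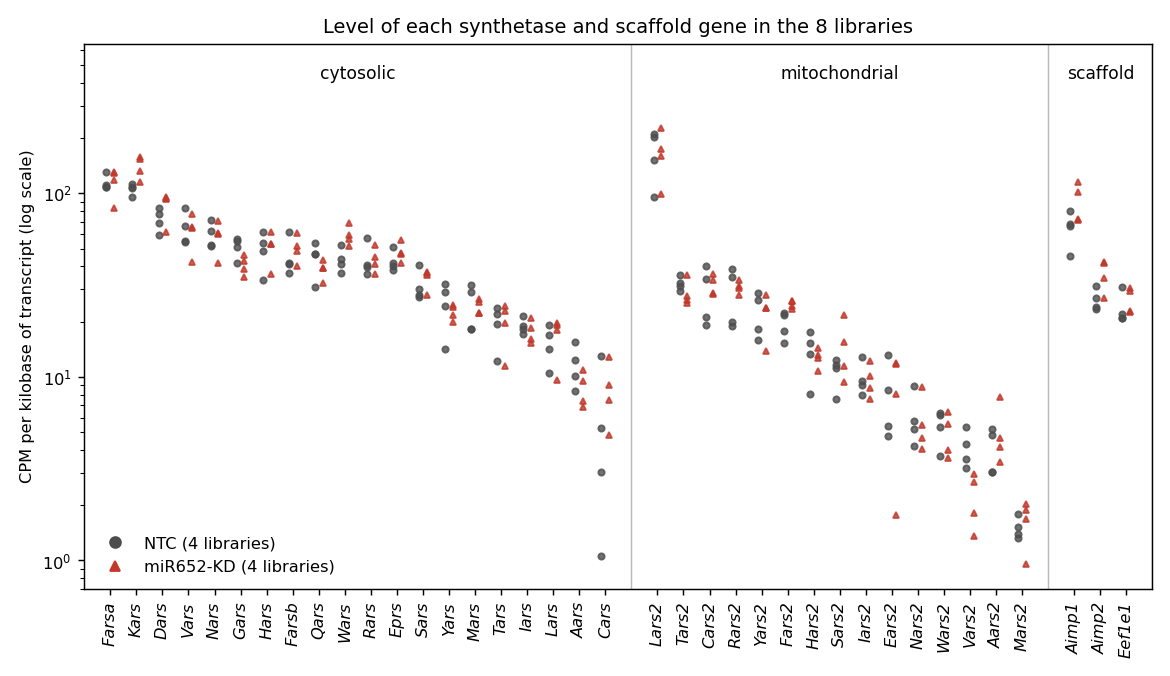
CPM per kilobase of principal transcript (log axis) of each gene reported in the 4 NTC and 4 miR652-KD libraries, ordered by the NTC mean within each class. Farsa and Kars led the cytosolic genes at 114.5 and 105.5 in NTC, Lars2 led the mitochondrial genes at 165.1, and Cars and Ears2 show the widest spread of points.

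Mitochondrial genes had a median log2 fold change of 0.05, with 10 above 0 and 6 below, and a range from -0.89 to 0.44. Vars2 (ENSMUSG00000038838.15, chr17:35655634-35667592), the mitochondrial valyl enzyme, was at 15.7, 14.1, 19.1 and 23.6 CPM in NTC and at 8.04, 6.02, 13.1 and 11.8 CPM in miR652-KD. Every knockdown library lay below every control. Its log2 fold change was -0.89 (SE 0.36, edgeR adjusted p = 0.817), and -0.61 without NTC replicates 3 and 4. The antisense gene Gm20483 overlaps 8.5% of its exonic bases, and without a stated strand setting reads of the pair cannot be told apart. Vars, the cytosolic valyl enzyme, was at 344.8, 226.1, 273.8 and 224.6 CPM in NTC and at 272.2, 317.6, 268.3 and 174.3 CPM in miR652-KD, with groups that overlapped and a log2 fold change of -0.04 (SE 0.19, edgeR adjusted p = 0.999).

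Fars2 (ENSMUSG00000021420.13, chr13:36117412-36726280), the mitochondrial phenylalanyl enzyme, was at 37.6, 46.1, 47.4 and 32.7 CPM in NTC and at 55.0, 51.8, 49.8 and 54.9 CPM in miR652-KD. All 4 knockdown libraries lay above the controls by a narrow margin, and they varied less, with a coefficient of variation of 4.83% against 17.1%. The log2 fold change was 0.37 (SE 0.18, edgeR adjusted p = 0.864), and 0.34 without NTC replicates 3 and 4. Exons of Lyrm4 and Nrn1 on the opposite strand overlap 10.7% of its exonic bases. Sars2, the mitochondrial seryl enzyme, was at 23.1, 21.8, 14.1 and 20.8 CPM in NTC and at 40.5, 21.3, 28.9 and 17.5 CPM in miR652-KD, where replicates 1 and 3 were high and the groups overlapped (log2 fold change 0.44, SE 0.32, edgeR adjusted p = 0.964). Without miR652-KD replicate 1 the log2 fold change was 0.18.

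Tars2, the mitochondrial threonyl enzyme, was at 70.8, 78.3, 86.5 and 75.0 CPM in NTC and at 86.0, 62.7, 60.7 and 66.4 CPM in miR652-KD, where 3 libraries lay below all controls and replicate 1 among them. Its log2 fold change was -0.17 (SE 0.17, edgeR adjusted p = 0.995), and it ran from -0.29 without miR652-KD replicate 1 to -0.11 without miR652-KD replicate 3. Aars2, the mitochondrial alanyl enzyme, ran from 10.2 to 17.5 CPM in NTC and from 11.6 to 26.03 CPM in miR652-KD. Its log2 fold change of 0.33 (SE 0.37, edgeR adjusted p = 0.995) was 0.03 without miR652-KD replicate 4, the highest library. Cars2 (cysteinyl) was at 76.8, 64.9, 36.4 and 40.5 CPM in NTC and at 53.8, 54.4, 69.0 and 64.2 CPM in miR652-KD. Rars2 (arginyl) was at 35.2, 37.2, 72.3 and 65.7 CPM in NTC and at 62.8, 52.0, 58.4 and 57.2 CPM in miR652-KD. In both genes the controls split into replicates 1 and 2 against 3 and 4, in opposite directions, along the same line as the granulocyte markers, whose part in this was not tested. Log2 fold changes were 0.15 (SE 0.25) for Cars2 and 0.13 (SE 0.26) for Rars2, and without NTC replicates 3 and 4 they were -0.22 and 0.68.

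Lars2 (ENSMUSG00000035202.8, chr9:123366927-123462666), the mitochondrial leucyl enzyme, stood apart in level. It was at 823.5, 786.7, 369.6 and 592.4 CPM in NTC and at 679.0, 618.7, 884.5 and 387.4 CPM in miR652-KD, and its log2 fold change was 0.00 (SE 0.28, edgeR adjusted p = 1.0). Per kilobase it stood at 165.1 ± 53.6 (SD, n = 4) in NTC, the highest mean of the members, with Tars2 next among the mitochondrial genes at 32.4 ± 2.77. In NTC replicate 3 and miR652-KD replicate 4, its lowest libraries, Farsa and Kars were higher per kilobase. Lars2 made up 41.0% to 63.6% of the summed CPM of the 16 mitochondrial genes, depending on the library. Its transcript holds a run of 52 bases, from base 3278 to 3329 of 3894, identical to a stretch of Gm15564, an antisense transcript on chromosome 16. Gm15564, looked up after the values of Lars2 were seen, was at 19.8, 21.3, 10.5 and 17.8 CPM in NTC and at 23.0, 24.4, 25.6 and 8.5 CPM in miR652-KD, so that the libraries lowest in Lars2, NTC replicate 3 and miR652-KD replicate 4, were also lowest in Gm15564. Stretches of 104 to 288 matched bases were shared with 47 annotated genes at 74.4% to 91.9% identity. How many reads counted for Lars2 came from such copies was not tested.

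At the other end, Mars2, the mitochondrial methionyl enzyme with a miR-652-5p seed match in its long 3′ UTR, stood at 1.51 ± 0.209 CPM per kilobase (SD, n = 4), a value that its transcript length of 11294 bases lowers. Its level was 17.05 ± 2.36 CPM in the controls, at most 20.3, and 18.5 ± 5.37 CPM in the knockdown, from 10.8 to 22.9, with groups that overlapped and a log2 fold change of 0.12 (SE 0.31, edgeR adjusted p = 0.999). Leaving out single libraries moved it from 0.01 (miR652-KD replicate 2) to 0.31 (miR652-KD replicate 3). Ears2, the mitochondrial glutamyl enzyme, ranged most among the mitochondrial genes, from 9.70 to 26.8 CPM in NTC and from 3.64 to 24.4 CPM in miR652-KD. A further 5 mitochondrial genes, Wars2, Hars2, Nars2, Iars2 and Yars2, had log2 fold changes from -0.13 to 0.01. Of these, Iars2 is overlapped by exons of other genes over 24.2% of its exonic bases. Pars2 and Tarsl2, outside the name pattern, had NTC means of 22.1 ± 6.44 and 11.8 ± 5.45 CPM and knockdown means of 28.4 ± 12.9 and 12.9 ± 7.34 CPM (SD, n = 4).

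The 3 scaffold genes each had a log2 fold change above 0, with a median of 0.47. Aimp1 (ENSMUSG00000028029.10, chr3:132660499-132684370), whose product binds transfer RNA and is also secreted as a cytokine precursor, was at 51.2, 77.0, 90.1 and 74.5 CPM in NTC and at 80.4, 129.0, 114.8 and 82.0 CPM in miR652-KD. Aimp2 (ENSMUSG00000029610.13, chr5:143902704-143909847), the central scaffold of the complex, was at 28.3, 27.9, 36.9 and 31.8 CPM in NTC and at 40.8, 50.2, 32.0 and 49.3 CPM in miR652-KD. In each gene the overlap came from NTC replicate 3, the highest control. The log2 fold change of Aimp1 was 0.47 (SE 0.22, edgeR adjusted p = 0.848) and that of Aimp2 0.47 (SE 0.22, edgeR adjusted p = 0.846). Without NTC replicates 3 and 4 they were 0.66 and 0.63. Exons of Eif2ak1, the gene for the haem-regulated kinase of the integrated stress response, overlap 29.4% of Aimp2 on the opposite strand, and Aimp1 shares 808 matched bases at 84.8% identity with the processed pseudogene Gm8869, so both counts are uncertain. Eef1e1, the third scaffold gene and the second with a miR-652-5p seed match, was at 53.5, 56.2, 79.2 and 53.2 CPM in NTC and at 74.7, 58.4, 57.5 and 78.0 CPM in miR652-KD, with groups that overlapped and a log2 fold change of 0.15 (SE 0.20, edgeR adjusted p = 0.999). Leaving out single libraries moved it from 0.07 (miR652-KD replicate 4) to 0.31 (NTC replicate 3).

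The multisynthetase complex as a whole has 11 members here, the 3 scaffold genes and Eprs, Iars, Lars, Mars, Qars, Rars, Kars and Dars. Their median log2 fold change was 0.15, with 8 above 0 and 3 below. The 8 enzymes of the complex had a median of 0.07, with 5 above 0 and 3 below, and the 12 cytosolic enzymes outside it 0.02, with 7 above 0 and 5 below. Of the 11 genes 0 were called by edgeR, beside 0.0418% of all genes tested. Only 1, Kars, had an unadjusted p below 0.05 by edgeR. It was higher in miR652-KD, as were 2.9% of all genes tested at that p.

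Summed over each class, the values of both groups overlapped in all 3 classes. The cytosolic sum averaged 2389 ± 202.1 CPM over the controls and 2498 ± 163.3 CPM over the knockdown libraries (SD, n = 4). For the mitochondrial genes it was 1162.5 ± 206.5 and 1180.1 ± 188.3 CPM, and without Lars2 519.4 ± 29.7 and 537.7 ± 31.2 CPM. Most of the spread of the mitochondrial sum was that of Lars2. The scaffold sum was 133.1, 161.2, 206.2 and 159.4 CPM in NTC and 195.9, 237.6, 204.3 and 209.3 CPM in miR652-KD, where NTC replicate 3 lay among the knockdown libraries and the other controls lay below them. Spread between libraries was described gene by gene and by class. The ratio of the highest to the lowest of the 8 libraries was below 2 for 15 of 20 cytosolic genes and 5 of 16 mitochondrial genes, most of which also have fewer counts. Median coefficients of variation in NTC were 21.0% and 25.2%. The library means of log2(CPM + 1) over a class went the other way, with a pooled SD of 0.14 for the cytosolic and 0.09 for the mitochondrial genes, and the difference in spread was not tested.

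**Figure D3:**
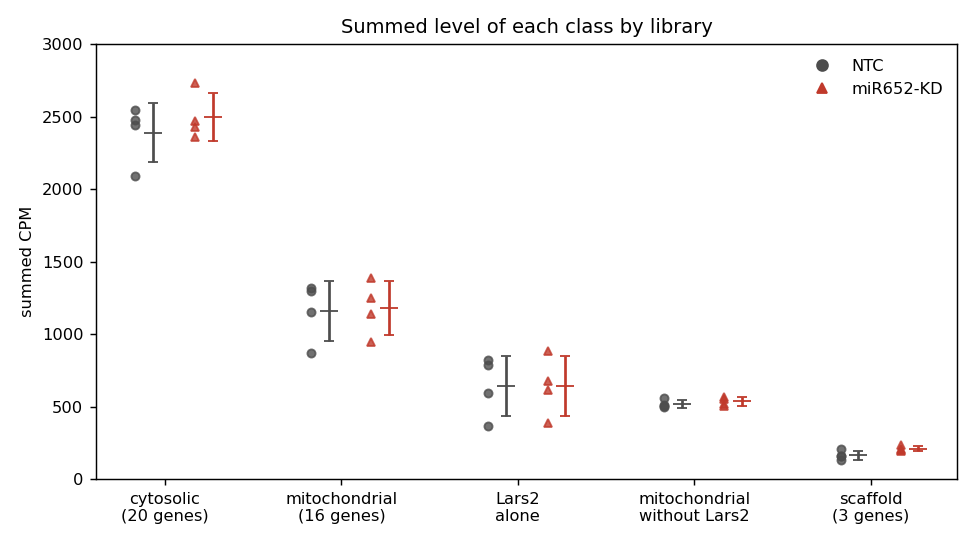
Summed CPM of the cytosolic genes, the mitochondrial genes, Lars2 alone, the mitochondrial genes without Lars2 and the scaffold genes in each library, with the mean and SD of the 4 libraries of each group beside the points. The groups overlap in each class, and the mitochondrial sum without Lars2 (519.4 ± 29.7 CPM in NTC) varies less than with it (1162.5 ± 206.5 CPM).

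For 16 pairings of a cytosolic and a mitochondrial enzyme of the same amino acid, the cytosolic gene was higher per kilobase in all 8 libraries in 11. The median log2 ratio over the 16 was 1.55 in NTC and 1.16 in miR652-KD. The widest gaps in NTC were Vars over Vars2, with a log2 ratio of 3.98 ± 0.50, and Mars over Mars2, at 3.97 ± 0.30 (SD, n = 4). Lars2 was higher than Lars in all 8 libraries (log2 ratio -3.41 ± 0.65 in NTC), as were Cars2 over Cars (-2.83 ± 1.30) and Tars2 over Tars (-0.79 ± 0.36). Yars and Yars2 were level, with 4 libraries on each side, and Aars was above Aars2 in 7. With the union of all annotated exons as the length, an alternative added after the data were seen, the count of pairings higher in all libraries was again 11, but Tars was above Tars2 in 6 libraries. No pairing had ratios that separated the groups, and the knockdown minus control difference was above 0 in 8 and below 0 in 8. The Vars and Vars2 ratio went to 4.86 ± 0.81 in miR652-KD. Farsa and Farsb share Fars2 as their partner, so the 16 pairings are not all separate.

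**Figure D4:**
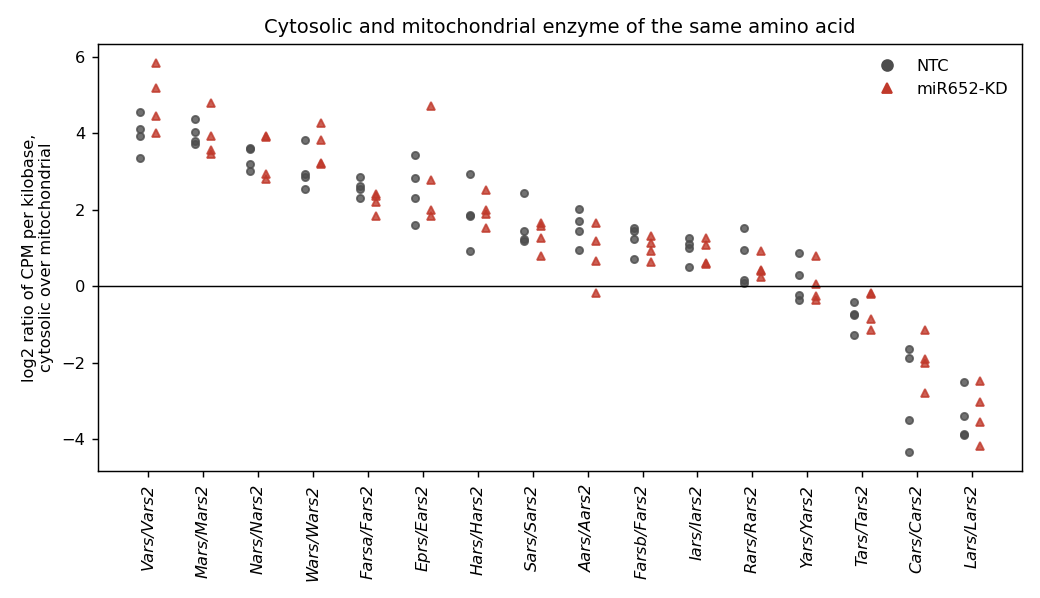
Log2 ratio of CPM per kilobase, cytosolic gene over mitochondrial gene of the same amino acid, in each of the 8 libraries, ordered by the NTC mean. Points above the line at 0 have the cytosolic gene higher, as in all libraries for 11 pairings, while Lars over Lars2 lies at -3.41 ± 0.65 in NTC.

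The 5 cytosolic genes whose promoters hold the response element shown above, Aars, Gars, Iars, Tars and Yars, had log2 fold changes from -0.41 to 0.02, with 1 above 0 and 4 below. The 8 cytosolic genes whose promoter windows lack it had log2 fold changes from -0.20 to 0.40, with 6 above 0 and 2 below. The medians were -0.13 and 0.14. This split was made after the values were known and is a description. It leaves out the cytosolic genes without a promoter window, Cars, Hars, Lars, Nars, Rars, Vars and Wars. Their log2 fold changes ran from -0.04 (Vars) to 0.63 (Cars), and which side they would join is not known here. Of 30 genes of the ATF4 and amino acid response, 27 were tested and 0 were called by edgeR, beside 0.0418% of all genes tested. The list covers serine, glycine and one-carbon synthesis and eIF2α kinases and phosphatases. At an unadjusted p below 0.05 by edgeR 1 was higher and 1 lower, beside 2.9% and 3.09% of all genes tested. The median log2 fold change of the 27 was 0.17, with 19 above 0 and 8 below. Vldlr, a lipoprotein receptor, had the smallest p, with -1.38 (edgeR adjusted p = 0.681), followed by Nupr1, a stress-induced chromatin protein, with 0.47 and Eif4ebp1, which restrains cap-dependent translation, with 0.34. Atf4 itself averaged 90.9 ± 15.3 CPM over the controls and 101.5 ± 25.5 CPM over the knockdown libraries (SD, n = 4). Asns, its asparagine synthetase target, averaged 36.3 ± 18.4 and 29.0 ± 9.29 CPM, and the groups in each case differed by less than their spread.

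Partners of the synthetases gave no call either. Of 16 genes for other charging steps and proofreading, 8 were above 0 and 8 below, with a median log2 fold change of 0.03. The smallest p belonged to Sepsecs, which makes selenocysteinyl-tRNA, with means of 32.0 ± 14.4 CPM in the controls and 14.7 ± 3.83 CPM in the knockdown (log2 fold change -1.13, edgeR adjusted p = 0.779), then Yrdc (0.40), which makes a tRNA modification next to the anticodon, and Prorsd1 (-0.29), a homologue of a proofreading domain. Of the subunits of the mitochondrial amidotransferase that makes glutaminyl-tRNA from the product of Ears2, Gatb, Gatc and Qrsl1 had log2 fold changes of 0.11, -0.14 and 0.22. Elongation factors that carry charged tRNA to the ribosome or work beside it, 10 genes, had a median of 0.01, with 6 above 0 and 4 below. The smallest p values were those of Tufm (0.34) and Gfm1 (-0.51) of mitochondria and Eef1d (0.22) of the cytosol. Amino acid transporters and sensors, 15 of 19 tested, had a median of -0.02, with 7 above 0 and 8 below, and were led by Slc1a5 (0.31), Slc7a1 (0.59) and Sesn1 (0.29), for a glutamine carrier, an arginine carrier and a leucine sensor of the mTORC1 pathway. In each of these lists 0 genes passed the adjusted threshold of edgeR, beside 0.0418% of all genes tested.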

How the data were processed

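Smart-seq2 libraries, which copy polyadenylated RNA of few cells into full-length cDNA before Tn5 fragmentation, were made from sorted mouse HSCs, 4 NTC and 4 miR652-KD, per the labels' protocols. The authors deposited raw read counts by gene, as whole numbers. HISAT2 2.1.0, HTSeq 0.11.2, DESeq2 and the mm10 build are named in the submitters' processing notes. No source used here gives the strand setting or annotation release. The 5 HTSeq summary lines that close each file entered no library size or test. Reads that HTSeq assigned to no feature made up 9.69% to 16.94% of the file total, and ambiguous reads 8.94% to 12.28%. No molecular identifiers were used, so amplified copies count as reads.

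CPM are counts scaled by the total over gene rows. Per-kilobase levels divide by the length of the APPRIS principal transcript in GENCODE M21, and overlaps and shared sequence (minimap2 2.31, stretches of at least 100 matched bases) come from the same annotation. Tests used edgeR 4.0.16 in R 4.3.3 on all 8 libraries: TMM scaling, filterByExpr (minimum count 10, minimum total 15), robust quasi-likelihood fits, Benjamini-Hochberg adjustment over 14360 genes and a threshold of 0.05. A log2 fold change above 0 means higher in miR652-KD. Alternatives were RLE, upper-quartile and library-total scaling, DESeq2 1.42.0, a filter of 5 CPM in at least 4 libraries or none, limma-voom (3.58.1) with quality weights, non-robust fits, a replicate block, and leaving out each library or NTC replicates 3 and 4. The fit was tested on simulated counts. Values are given for the reported genes among the 8 cytosolic, 8 mitochondrial and 3 scaffold genes of smallest p. Genes whose groups do not overlap and the extremes of level are given too. All of these have values by library except Aars2 and Mars2, which are summarized by group. Of the members, 1 is counted in totals but not reported here. Members and lists were chosen with earlier results of these data known. Within each group, no pair of libraries agreed within sampling noise in a chi-square comparison of counts.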

Additional observations from a re-analysis of the deposited data

Results flagged for a closer look

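In 5 of 82 groups of 4 values (the reported members and summed levels, each in NTC and in miR652-KD), a single library lay far from the other 3 by Dixon's test at the 95% level; chance gives about 1 in 20. Dars was lowest in miR652-KD replicate 3, at 133.4 CPM. Lars was lowest in miR652-KD replicate 1, at 38.36 CPM, and Sars in miR652-KD replicate 4, at 99.09 CPM. NTC replicate 3 was the highest control for Farsa, at 238.55 CPM, and for Eef1e1, at 79.16 CPM. That library and NTC replicate 4 also held the most granulocyte and monocyte transcripts, whose part in these values was not tested.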

How the results depend on the processing

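Across 18 alternatives 0 of the 39 members were called, and the lowest adjusted p of any member in a fit ran from 0.13 (Kars, DESeq2) to 0.905. The count over all genes was 6, against 131 with DESeq2, 0 with the replicate block, 0 without NTC replicates 3 and 4 and 0 without any single library. The numbers do not pair the libraries (correlations of -0.033 to -0.01 for same numbers); with the replicate block the class medians were 0.031 (cytosolic), 0.015 (mitochondrial) and 0.455 (scaffold). Leaving out single libraries, they ran from -0.015 to 0.106, from -0.049 (without NTC replicate 3) to 0.124, and from 0.324 to 0.56. Of 378 values for 21 named genes, 362 kept their sign and 16, in 4 genes near 0, did not. Lars2 was -0.003 with RLE, -0.002 with library totals, -0.004 with DESeq2, -0.006 with the block, -0.319 without NTC replicates 3 and 4 and -0.188 to 0.178 without single libraries. Farsa was -0.004 with the block and -0.059 to 0.147 without single libraries, Rars2 -0.027 to 0.327, and Cars2 -0.002 to 0.341 and -0.222 without NTC replicates 3 and 4. The cause was not tested. The lowest count of any member in a library was 50.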
